A study of Mus musculus with 6 samples.

Results

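The core circadian clock genes are the 10 transcripts of the feedback loop that sets daily rhythm in most mammalian cells: Arntl, Clock, Npas2, Per1, Per2, Per3, Cry1, Cry2, Nr1d1 and Nr1d2. All probe sets annotated to only 1 of these symbols were taken, whatever their values. This gave 23 probe sets of 45037 on the array and 10 genes of the 18193 that have a probe set naming a single gene. The genes themselves were chosen with earlier results of these data known, so counts over them are descriptions. Transcripts were measured on Affymetrix mouse genome arrays in whole liver from 6 male FRG mice on a C57Bl/6J background, 12 weeks old at collection, with 1 array for each of 3 mice per group. FRG mice are Fah-/-, Rag2-/- and Il2rg-/-: they lack the last enzyme of tyrosine breakdown and have no mature T, B or NK cells, and both groups carry all these deletions. The FRG+NTBC group drank nitisinone (NTBC, an inhibitor of the upstream enzyme Hpd) at 16 mg/l, and the FRG-7dNTBC group was 7 days without it. Both groups ate chow low in tyrosine and phenylalanine. The mice lived under 14 h of light and 10 h of dark. The clock time at which each liver was taken is not given in the sources used here, and its part in the differences reported here was not tested.

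In the clock, ARNTL (also called BMAL1) pairs with CLOCK, or with its relative NPAS2, and switches on genes that carry an E-box, the letters CACGTG. This pair forms the positive arm. Among its targets are the PER and CRY genes, whose proteins return to the nucleus and block the pair, and the nuclear receptors Nr1d1 and Nr1d2 (REV-ERB alpha and beta), which silence Arntl through ROR elements. These 7 genes form the negative arm. In mouse liver the Arntl transcript peaks when those of Nr1d1, the PER genes and the output factor Dbp are low, and the loop times glucose, lipid and bile acid metabolism to feeding.

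Promoter windows of the members show where those elements lie. RefSeq (GRCm38.p6) gave 13 windows for 9 of the 10 genes, each 300 bases long, from 250 bases before to 50 bases after a transcription start. Per2 had no window and was not searched. Shown here are those in which a searched motif was found for a member whose transcript differed between the groups, written 5′ to 3′ along the gene with the motif in capitals. In Arntl the capitals mark a ROR element, in Per1 an E-box, in Per3 D-boxes, in Cry1 a variant E-box followed by an E-box, and in Nr1d1 a variant E-box.
Arntl, chr7:113207261-113207560, plus strand: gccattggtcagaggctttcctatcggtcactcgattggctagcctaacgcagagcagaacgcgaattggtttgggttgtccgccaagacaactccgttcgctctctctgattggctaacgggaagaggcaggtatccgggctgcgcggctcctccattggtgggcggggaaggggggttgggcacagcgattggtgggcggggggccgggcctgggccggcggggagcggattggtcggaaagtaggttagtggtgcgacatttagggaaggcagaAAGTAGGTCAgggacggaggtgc
Per1, chr11:69098699-69098998, plus strand: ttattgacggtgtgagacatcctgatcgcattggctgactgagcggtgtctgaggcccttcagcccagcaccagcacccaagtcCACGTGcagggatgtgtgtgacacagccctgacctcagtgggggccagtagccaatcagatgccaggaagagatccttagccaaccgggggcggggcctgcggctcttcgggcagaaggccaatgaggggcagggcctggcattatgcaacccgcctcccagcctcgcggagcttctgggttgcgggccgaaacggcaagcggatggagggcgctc
Per3, chr4:151044616-151044915, minus strand: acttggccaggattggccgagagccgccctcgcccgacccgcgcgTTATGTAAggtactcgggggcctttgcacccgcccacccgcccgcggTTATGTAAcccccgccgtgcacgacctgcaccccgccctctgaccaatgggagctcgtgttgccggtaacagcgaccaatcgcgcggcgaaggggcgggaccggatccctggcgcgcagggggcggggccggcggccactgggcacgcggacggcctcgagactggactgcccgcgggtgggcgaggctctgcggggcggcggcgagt
Cry1, chr10:85185005-85185304, minus strand: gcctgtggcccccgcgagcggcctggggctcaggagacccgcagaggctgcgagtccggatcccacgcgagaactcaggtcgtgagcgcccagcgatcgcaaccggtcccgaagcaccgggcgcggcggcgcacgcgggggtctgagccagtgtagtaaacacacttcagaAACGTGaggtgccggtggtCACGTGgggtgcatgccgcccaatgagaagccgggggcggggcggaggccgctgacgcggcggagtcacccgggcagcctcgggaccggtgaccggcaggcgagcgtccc
Nr1d1, chr11:98775328-98775627, minus strand: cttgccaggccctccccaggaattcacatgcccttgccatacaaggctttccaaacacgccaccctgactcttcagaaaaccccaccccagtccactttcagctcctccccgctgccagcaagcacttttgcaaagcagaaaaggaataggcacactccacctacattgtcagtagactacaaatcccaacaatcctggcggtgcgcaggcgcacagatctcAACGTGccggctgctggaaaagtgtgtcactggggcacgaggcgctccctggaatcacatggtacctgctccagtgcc

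Each motif was searched on both strands of all 32851 promoter windows of the same length. The E-box CACGTG lay in 7.15% of them and, among the members, in Per1 at position -166 and in Cry1 at -60 (first base of the motif, counted from the start). The variant CACGTT was in 4.68% of windows and in Cry1, Cry2 and Nr1d1, at -79, -166 and -28. The D-box TTATGTAA, the element bound by DBP, TEF, HLF and NFIL3, was in 0.938% of windows, and Per3 held it 2 times, at -205 and -158. The ROR element, read as AAN followed by TAGGTCA, was in 0.219% of windows and in Arntl, 27 bases after the second of its annotated starts. The D-box form TTACGTAA (0.119%), the ROR element with TGGGTCA in place of TAGGTCA (0.216%) and the cAMP response element TGACGTCA (1.79%) matched no member that had a window. Per2, which had none, could not be read for any motif. A match is a run of letters and not a measured site.

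After 7 days without NTBC, Arntl, Clock and Cry1 were higher and all 3 PER genes, Nr1d1 and Nr1d2 were lower than with NTBC, each read at its brightest probe set (highest in log2 intensity, averaged over the 6 livers). Npas2 and Cry2 did not pass the test. The largest difference was in Per3, 7.5-fold lower. The largest in the other direction was in Clock, 3.56-fold higher, a call made at 1 of its 4 probe sets. The test was limma's moderated test on log2 intensity, and a probe set passed at an adjusted p under 0.05 (Benjamini-Hochberg over all 45037). By the same test 17.4% of all genes were higher and 12.7% lower (30.2% in all) at their brightest probe set, against 3 and 5 of the 10 members. The lower members fell from 5 to 2, Per2 and Per3, without FRG+NTBC replicate 2, and to 3 if replicate 1 of either group was left out. Over all member probe sets 3 of 23 were higher (14.0% of all probe sets) and 10 of 23 lower (13.9%), and with each array scaled to its 75th percentile 3 and 11, while the split of all probe sets moved from 6284 higher and 6262 lower to 5366 and 9669. The groups did not overlap at 15 of 23 member probe sets, beside 44.1% of all probe sets, or 46.2% of all genes at the brightest one. With at least 2-fold asked for as well, 2 were higher and 7 lower, against 7.61% and 5.12% of all probe sets. The median log2 difference of the 23 was -0.45, and that of all probe sets -0.08. With 3 livers a group an exact permutation test cannot go below p = 0.1, so no single-gene permutation p is given.

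**Figure D1:**
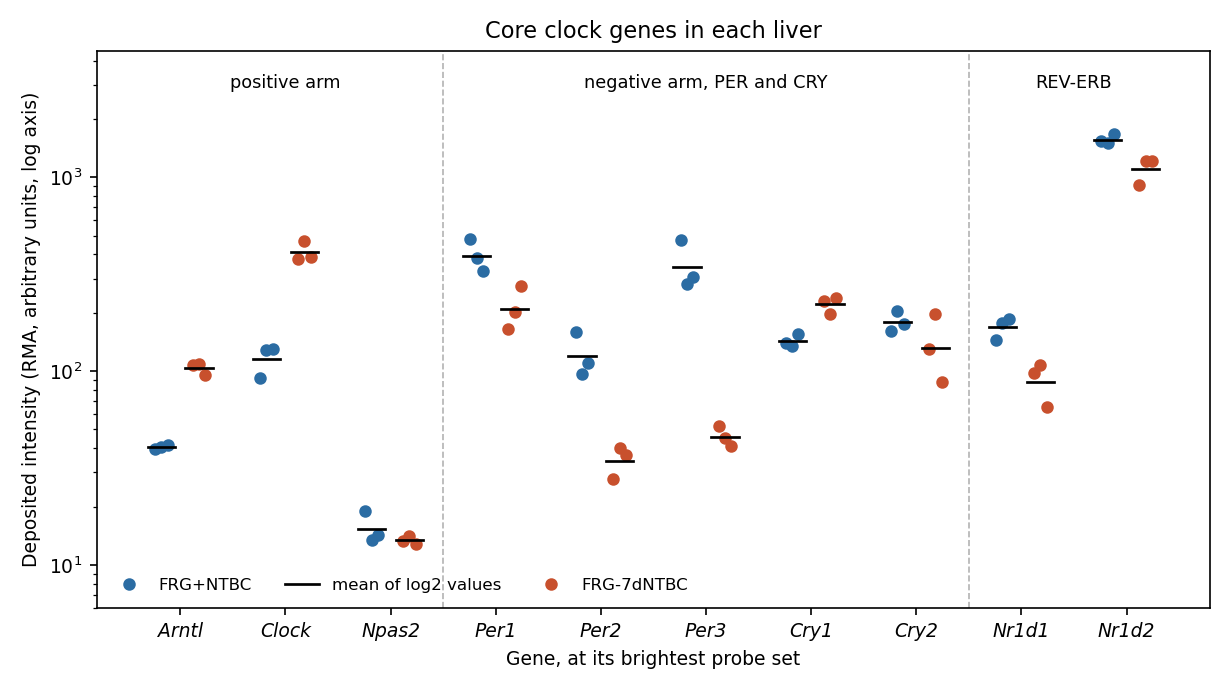
Intensity on a log axis of each core clock gene at its brightest probe set, with 1 point for each liver, FRG+NTBC beside FRG-7dNTBC, and a line at the group mean. The 3 livers without NTBC lie above all 3 livers with NTBC for Arntl, Clock and Cry1 and below them for Per1, Per2, Per3, Nr1d1 and Nr1d2, while the groups overlap for Npas2 and Cry2.

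Arntl, the one factor of the positive arm that has no substitute in the loop, read 39.7, 40.5 and 41.4 in the FRG+NTBC livers and 107, 108 and 95.01 in the FRG-7dNTBC livers (intensity, probe set 1425099_a_at). All 3 livers without NTBC were above all 3 with it. The means were 40.5 ± 0.845 and 103 ± 7.33 (SD, n = 3 each), a log2 difference of 1.35 (SE 0.12, 95% confidence interval 1.08 to 1.62, limma adjusted p = 0.000199). Leaving out any 1 liver kept it between 1.31 and 1.41. The readings with NTBC were little above the median intensities of the arrays (33.1 to 36.5), so this fold rests on dim readings. The second Arntl probe set, 1457740_at, read 40.0, 40.8 and 35.3 against 28.8, 34.1 and 32.9. These groups did not overlap either, but in the opposite direction, and the difference of -0.28 (SE 0.13) did not pass (limma adjusted p = 0.153).

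Clock, the histone acetyltransferase partner of ARNTL, read 92.4, 128 and 131 with NTBC and 380, 471 and 388 without it at probe set 1418659_at. The lowest liver without NTBC was well above the highest with it. The log2 difference was 1.83 (SE 0.17, 95% confidence interval 1.43 to 2.23, limma adjusted p = 0.000277), and the range on leaving out 1 liver was 1.67 to 1.92. The other 3 Clock probe sets did not show it. Probe set 1418660_at read 121, 198 and 186 against 99.0, 108 and 146, with overlapping groups and a difference of -0.50 (95% confidence interval -1.02 to 0.02, limma adjusted p = 0.138). Without FRG+NTBC replicate 1 that difference became -0.73 and passed (limma adjusted p = 0.0395), in the direction opposite to 1418659_at. Probe set 1435775_at gave -0.31 (95% confidence interval -0.82 to 0.19) and 1439314_at, at 12.9 to 26.0 in the 6 livers, gave -0.03 (95% confidence interval -0.6 to 0.54). The mean over all 4 probe sets differed by 0.25, which did not pass (limma adjusted p = 0.282). Clock was thus called higher by 1 of its 4 probe sets, and the deposited table does not say which transcript each one reads. In the FRG+NTBC livers alone 1418659_at averaged 117, below 1418660_at (168) and 1435775_at (190). It was therefore the brightest over the 6 livers only through its readings without NTBC.

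Npas2, which can stand in for CLOCK, gave low intensities. Its brightest probe set read 19.0, 13.5 and 14.2 with NTBC and 13.3, 14.1 and 12.8 without it, and the other read 12.5 to 14.6 over all 6 livers. No detection call was used here, so whether such dim readings stand above background is not known, and a fold that rests on one is given as measured. The groups overlapped and the differences of -0.20 (SE 0.16) and 0.02 (SE 0.12) did not pass (limma adjusted p = 0.388 and 0.919).

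Per1, an inhibitor in the negative arm that also answers directly to glucocorticoids and cAMP, read 478, 383 and 329 with NTBC and 165, 202 and 276 without it. The groups did not overlap, but the highest liver without NTBC, replicate 3, came close to the lowest with it. The log2 difference was -0.90 (SE 0.22, 95% confidence interval -1.40 to -0.40, limma adjusted p = 0.0173). The call was lost without FRG+NTBC replicate 1 (limma adjusted p = 0.061), FRG+NTBC replicate 2 (0.0575) or FRG-7dNTBC replicate 1 (0.0617), with differences between -1.10 and -0.73 on leaving out any 1 liver.

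Per2, whose protein is the main partner of the CRY repressors, had 3 probe sets that were all lower. The brightest read 160, 96.3 and 111 with NTBC and 27.9, 40.2 and 36.8 without it. No liver of one group reached the other. The log2 difference was -1.79 (SE 0.22, 95% confidence interval -2.30 to -1.28, limma adjusted p = 0.000815), or 3.46-fold. The other probe sets gave 2.95-fold (limma adjusted p = 0.000436) and 3.96-fold (0.000145), so the 3 readings of this gene lay close to each other. Without NTBC these other probe sets read 20.1 to 29.45 and the brightest 27.9 to 40.2, so all 3 folds rest on dim readings.

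Per3, which is not needed for the loop to run but follows it closely in liver, differed most. At its brightest probe set it read 474, 282 and 304 with NTBC and 52.4, 44.9 and 41.1 without it. The lowest liver with NTBC was far above the highest without it. The log2 difference was -2.91 (SE 0.21, 95% confidence interval -3.39 to -2.42, limma adjusted p = 9.74e-05) and stayed between -3.05 and -2.67 on leaving out any 1 liver. Ordered from the lowest log2 difference among all 45037 probe sets, this one stood at place 149. Another 3 Per3 probe sets were lower by 7.98-fold, 8.75-fold and 5.45-fold (limma adjusted p = 0.000132, 6.93e-05 and 0.000512). Without NTBC these read 27.7, 28.8 and 42.8 (1441445_at), 33.1, 22.2 and 28.8 (1442243_at) and 17.9, 19.0 and 23.3 (1458176_at). Their folds thus rest largely on dim readings. The brightest probe set, at 41.1 to 52.4 without NTBC, was itself not far above the median intensities of the arrays (33.1 to 36.5). The remaining pair did not pass. Probe set 1421086_at read 11.3 to 13.6 in all livers, and 1460662_at read 37.0, 30.3 and 31.8 against 27.9, 28.8 and 23.4, a difference of -0.31 (limma adjusted p = 0.149).

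Within the FRG+NTBC group the PER genes were highest in replicate 1. This held at 8 of the 8 PER probe sets that passed and at 9 of all 10, which are repeat readings of 3 genes in the same livers. Replicates 2 and 3 kept no common order (Per1 383 and 329, Per3 282 and 304 at its brightest probe set). Over all probe sets replicate 1 was the highest at 40.1%. It was also the lowest of the 3 for Clock at 1418659_at and for Nr1d1. In the FRG-7dNTBC group the highest PER reading was spread over the mice, in replicates 1, 2 and 3 at 3, 2 and 3 of the probe sets that passed.

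The cryptochromes, the direct repressors of the ARNTL and CLOCK pair, did not follow the PER genes. Cry1 read 139, 134 and 155 with NTBC and 231, 197 and 239 without it. All livers without NTBC were higher. The log2 difference was 0.63 (SE 0.13, 95% confidence interval 0.33 to 0.94, limma adjusted p = 0.00933), 1.55-fold, and no left-out liver took the adjusted p above 0.044. Cry1 was the only one of the 7 negative-arm genes to be higher. Cry2 read 161, 204 and 175 with NTBC and 130, 198 and 88.0 without it. Replicate 2 without NTBC lay among the livers with NTBC while the other two lay below them. The difference of -0.45 (95% confidence interval -1.07 to 0.18) did not pass (limma adjusted p = 0.264), but it became -0.74 and passed without FRG-7dNTBC replicate 2 (limma adjusted p = 0.031).

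Nr1d1, the repressor that links the clock to lipid and bile acid genes and silences Arntl, read 145, 177 and 185 with NTBC and 97.7, 108 and 64.9 without it. The groups did not overlap. The log2 difference was -0.93 (SE 0.21, 95% confidence interval -1.41 to -0.46, limma adjusted p = 0.0118), 1.91-fold. It was lost without FRG+NTBC replicate 2 (limma adjusted p = 0.0516).

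Nr1d2, its relative with overlapping targets, read 1541, 1499 and 1663 with NTBC and 917, 1209 and 1209 without it at 1416958_at. The groups did not overlap, and the difference was the smallest of those that passed, -0.51 (SE 0.15, 95% confidence interval -0.85 to -0.17, limma adjusted p = 0.0361), 1.42-fold. This call was the least stable: it was lost without FRG+NTBC replicate 1 (limma adjusted p = 0.0798), 2 (0.0835) or 3 (0.104) and without FRG-7dNTBC replicate 1 (0.111). The dim second probe set, 1416959_at, read 31.3, 15.9 and 27.9 against 29.2, 60.6 and 24.9 and gave 0.56 (95% confidence interval -0.29 to 1.4), with overlapping groups. The mean over both probe sets differed by 0.02 and did not pass (limma adjusted p = 0.943). With all probe sets of each gene averaged in this way, 2 member genes were higher (Arntl and Cry1) and 4 lower (the PER genes and Nr1d1).

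**Figure D2:**
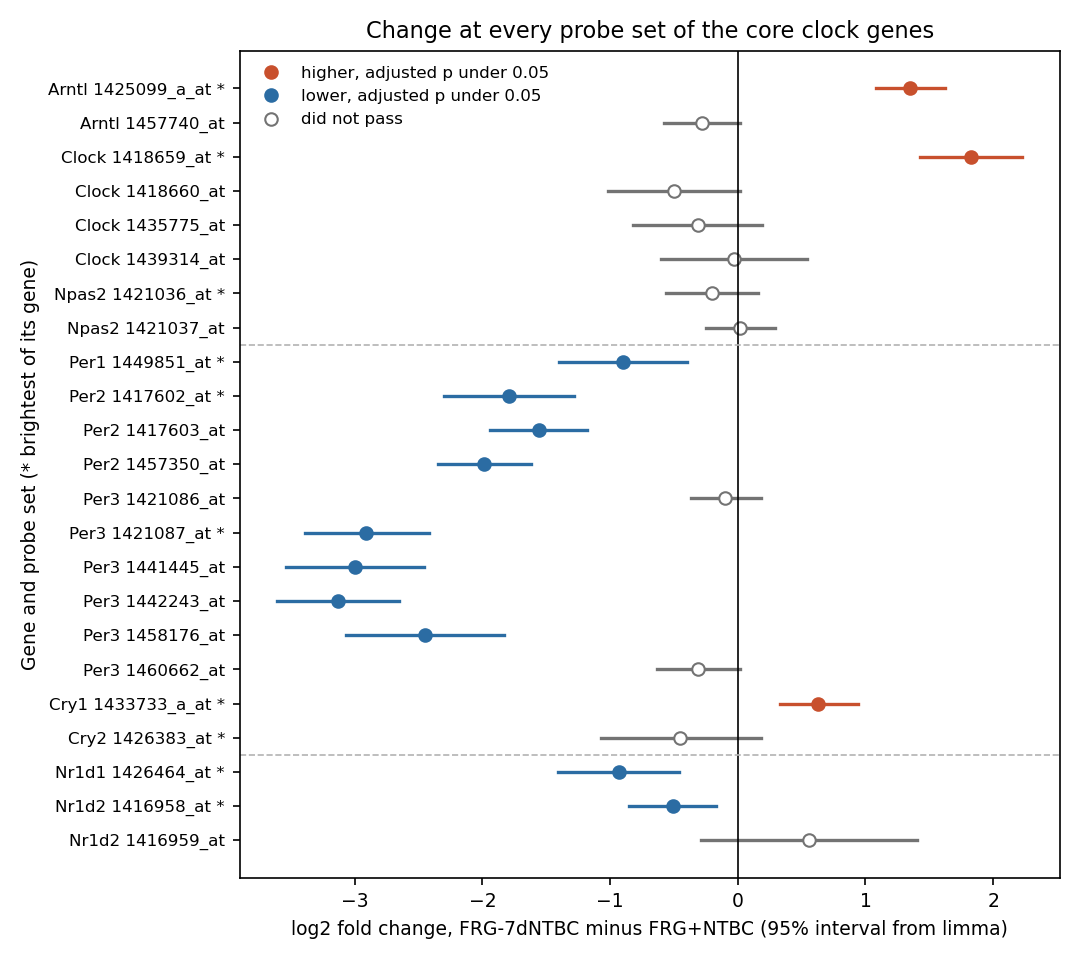
Log2 difference, FRG-7dNTBC minus FRG+NTBC, of all 23 probe sets of the 10 genes, with 95% confidence intervals from limma as bars and a line at 0. The Per2 and Per3 probe sets that passed lie furthest to the left at -3.13 to -1.56, with Nr1d1 and Per1 next at -0.93 and -0.90, the first Arntl and Clock probe sets furthest to the right at 1.35 and 1.83, and the other Arntl and Clock probe sets below 0.

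Set against each gene's own mean over the 6 livers, the arms lay on opposite sides of it in every liver. With 3 livers a group this centring makes the group means equal and opposite, so only their difference is a result. The mean log2 deviation of the 3 positive-arm genes was -0.51, -0.51 and -0.47 with NTBC and 0.47, 0.61 and 0.41 without it. For the 7 negative-arm genes it was 0.60, 0.42 and 0.46, then -0.57, -0.35 and -0.55. The 3 PER genes alone ran from 0.72 to 1.32 with NTBC and from -1.09 to -0.82 without it, and the REV-ERB pair from 0.24 to 0.47 and from -0.51 to -0.15. Positive minus negative arm was -1.11, -0.93 and -0.92 with NTBC and 1.04, 0.96 and 0.96 without it. The groups differed by 1.97 in this contrast, with a spread between livers of 0.11 and 0.04 (SD). Its size depended on which probe set stood for a gene. Over all 576 ways of choosing 1 probe set per gene it ran from 0.07 to 2.11, always above 0. The positive arm alone ran from -0.33 to 1.07 over its 16 choices, and the negative arm from -1.04 to -0.39 over its 36. With the mean of all probe sets of each gene the contrast was 1.0. The direction of the negative arm therefore held at every choice of probe set, and that of the positive arm did not.

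**Figure D3:**
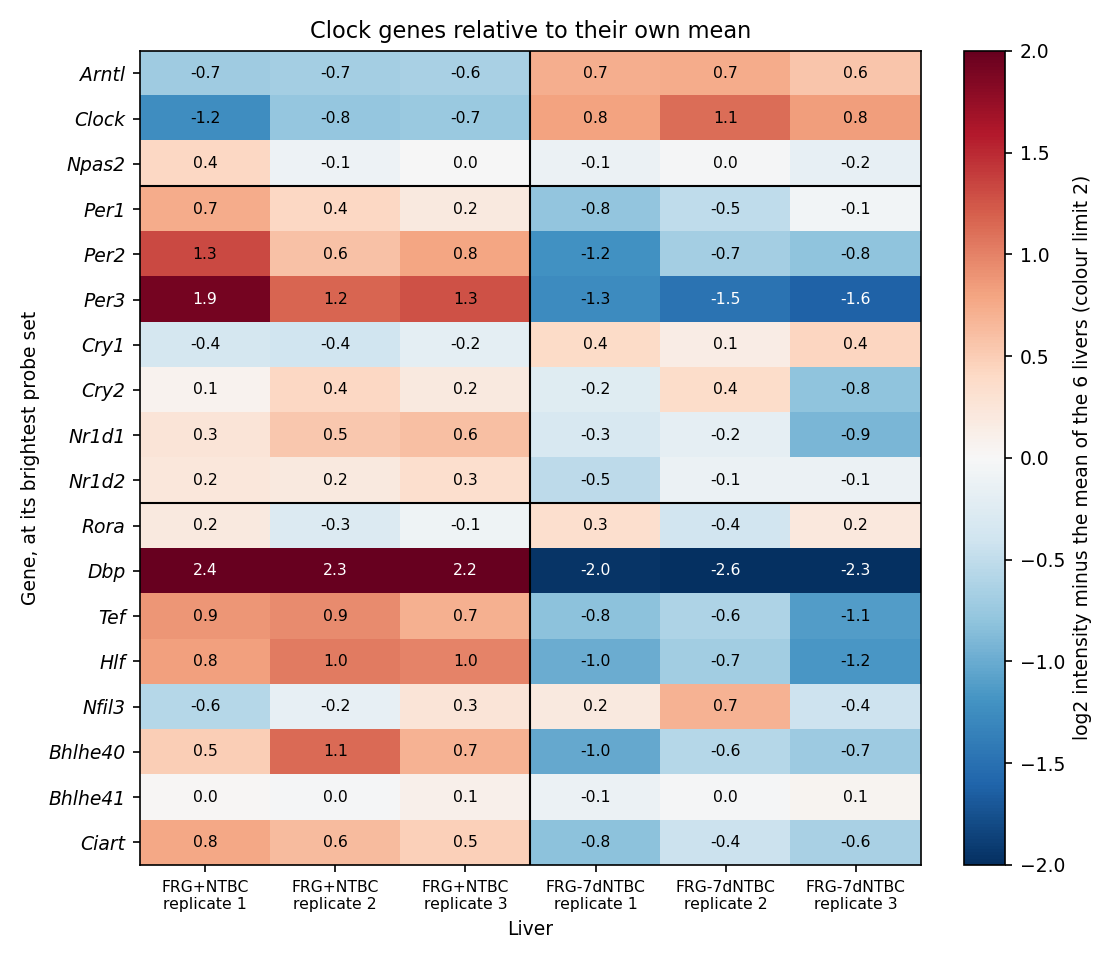
Log2 intensity of each gene minus its own mean over the 6 livers, at the brightest probe set, with 1 column for each liver, the colour scale limited to 2 on either side and the value written in each cell. Arntl, Clock and Cry1 are below their mean in the 3 livers with NTBC and above it in the 3 without, and Per1, Per2, Per3, Nr1d1, Nr1d2, Dbp, Tef, Hlf, Bhlhe40 and Ciart run the other way.

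Next to the core loop stand the factors that work on the same elements. Of 7 D-box and E-box factors 5 were lower, none was higher and 2 did not pass, beside 12.7% lower and 17.4% higher among all genes. Their median log2 difference was -1.55, beside -0.05 over all genes. Dbp, the activator at D-boxes such as those printed for Per3, read 4182, 3902 and 3616 with NTBC and 204, 131 and 160 without it. The groups lay far apart, 24.0-fold (log2 difference -4.59, SE 0.18, limma adjusted p = 8.04e-06). Its relatives Hlf (-1.90, limma adjusted p = 0.00015) and Tef (-1.69, 0.000258) were lower, as were the E-box repressors Bhlhe40 (-1.55, 0.000916) and Ciart (-1.26, 0.0007). Tef was also lower at 1438033_at (-1.96, limma adjusted p = 0.000132) but not at 1450184_s_at (-0.06, 0.876). Nfil3, which represses at D-boxes, read 136, 181 and 242 against 231, 329 and 152 and did not pass (difference 0.32, limma adjusted p = 0.479). Bhlhe41 read 18.6 to 21.7 in all livers and did not pass (-0.07, limma adjusted p = 0.713).

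The ROR receptors, which compete with REV-ERB and activate Arntl, gave no single answer. Rora read 1201, 861 and 982 with NTBC and 1314, 803 and 1209 without it at its brightest probe set, with overlapping groups and a difference of 0.11 (limma adjusted p = 0.74). Among its 9 probe sets 3 were higher and 2 lower, from 1.3 at 1436325_at to -1.29 at 1458129_at. Rorb did not pass (-0.32, limma adjusted p = 0.135), at levels of 17.9 to 27.5.

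The genes that act on clock proteins or read them out were mixed. Their counts stand beside 17.4% higher and 12.7% lower among all genes, and some of them are near those shares. Of 11 kinases, ubiquitin ligases and proteases 3 were higher and 2 lower. The deubiquitinase Usp2, itself a rhythmic gene that acts on PER and ARNTL proteins, was 10.5-fold lower (limma adjusted p = 5.94e-05). Prkaa1, the AMPK subunit whose kinase marks CRY1 for breakdown, was higher by 1.90 (limma adjusted p = 0.000178) from dim readings of 17.8, 18.9 and 24.8 with NTBC, and Csnk1e, which phosphorylates PER proteins, by 0.71 (0.00469). Prkaa2, another AMPK subunit, did not pass at its brightest probe set (0.66, limma adjusted p = 0.0594). It was higher at 1434766_at (0.78, 0.00665), while 1429464_at gave -0.71 and did not pass (0.0587). Of 8 cofactors 1 was higher, the deacetylase Sirt1 (0.97, limma adjusted p = 0.00301), and 2 were lower, Nono (-0.86, 0.00593) and Ppargc1a (-0.84, 0.019). Ppargc1a did not pass without FRG+NTBC replicate 1 (limma adjusted p = 0.0616), FRG+NTBC replicate 2 (0.0555) or FRG-7dNTBC replicate 1 (0.0502). Timeless did not pass (0.56, limma adjusted p = 0.079). Of 5 direct outputs 3 were lower: the fatty acid elongase Elovl3 (25.7-fold, limma adjusted p = 0.000145), the glycogen synthase Gys2 (-2.17, 0.00165) and the cell cycle kinase Wee1 (-0.69, 0.00451). Noct did not pass (-0.49, limma adjusted p = 0.179). Nampt, an E-box gene that makes NAD, did not pass at its brightest probe set (0.16, limma adjusted p = 0.723) but was higher at the other two, by 2.07 (9.5e-05) and 1.3 (0.00182).

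Genes that carry or answer hormone and cAMP signals also went both ways, with 3 of 7 higher and 2 lower. The glucocorticoid receptor Nr3c1 was lower (log2 difference -0.72, limma adjusted p = 0.0081), and so was Tsc22d3, a gene it induces (-1.27, 0.00169). Sgk1, also induced by glucocorticoids, was higher by 1.72 (limma adjusted p = 0.00377), as was Sik1, a kinase induced by cAMP, by 1.31 (0.00617). Over these 6 lists 7 of 40 measured genes were higher, 14 lower and 19 did not pass, beside 17.4% higher and 12.7% lower among all genes. The median log2 difference was -0.05, the same as over all genes.

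The members and some of their partners were also sorted by the time at which each transcript usually peaks in mouse liver. Of 5 transcripts that peak around dawn (Arntl, Clock, Npas2, Cry1 and Nfil3) 3 were higher, none was lower, and Npas2 and Nfil3 did not pass, with a median log2 difference of 0.63. Of 10 that peak in the later light phase or around dusk (the PER genes, the REV-ERB pair, Dbp, Tef, Hlf, Ciart and Bhlhe41) 9 were lower, none was higher and Bhlhe41 did not pass, with a median of -1.48. Over all genes 17.4% were higher and 12.7% lower, with a median of -0.05. Among the dawn transcripts Clock was called higher at 1 of its 4 probe sets, and its mean over all 4 did not pass (limma adjusted p = 0.282). Bhlhe40 (-1.55) and the member Cry2 (-0.45, which did not pass) were in neither list.

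**Figure D4:**
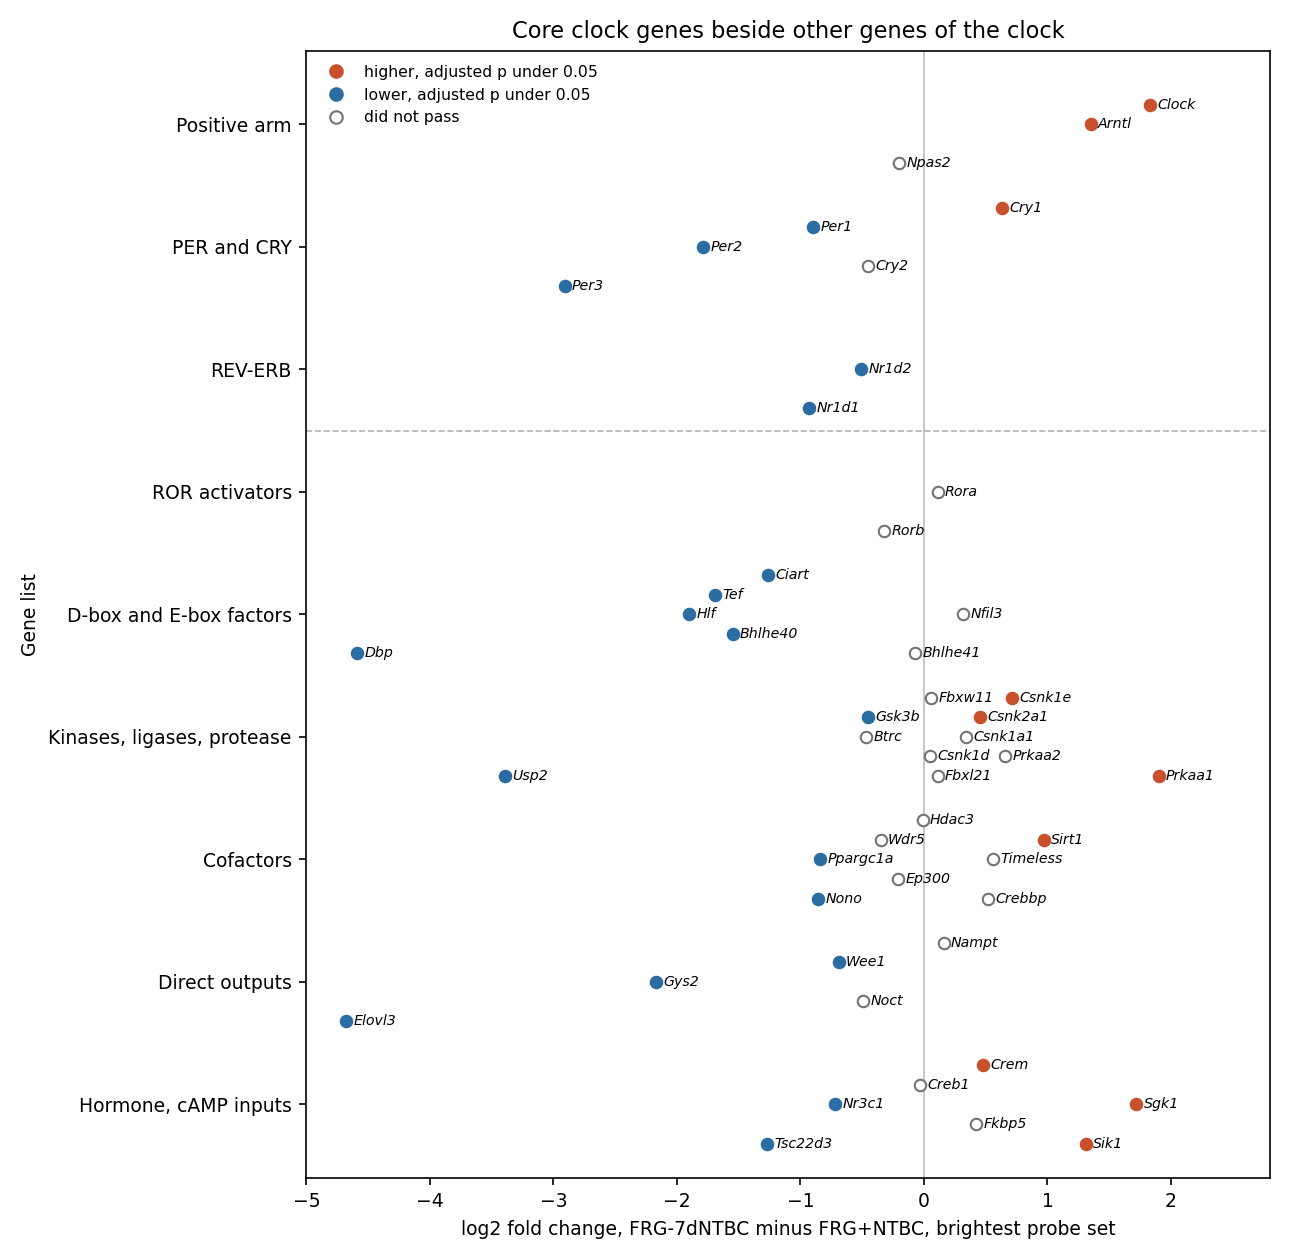
Log2 difference, FRG-7dNTBC minus FRG+NTBC, of each gene at its brightest probe set, in rows by list, with filled points for genes that passed limma's test and open points for those that did not. The members are above the dashed line. Dbp, Usp2 and Elovl3 lie further left than any member.

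In whole liver fewer cells of a type and less RNA per cell cannot be told apart, so cell markers are given beside these differences. Their counts stand beside 17.4% higher and 12.7% lower among all genes at the brightest probe set. Of 7 hepatocyte markers 3 were lower (Cps1, Tat and Ass1) and 4 did not pass, among them Alb (0.08, limma adjusted p = 0.62). Their summed intensity, 99059 to 101507 with NTBC and 90683 to 96346 without it, came mostly from Alb, Ttr and Apoa1, which lay near the top of the array's range (29532). Macrophage markers were higher for 4 of 7 (Cd68, Marco, Vsig4 and Cd5l), summing to 1582 to 2184 and 1894 to 4590. Endothelial markers were higher for 2 of 6, Clec4g and Lyve1 (1119 to 1670 and 1778 to 2191), and stellate cell markers for 1 of 6, Lrat (2116 to 3694 and 2774 to 4503). None of 5 neutrophil (169 to 230 and 165 to 256), 7 lymphocyte (293 to 322 and 288 to 294) or 5 cholangiocyte markers (188 to 221 and 156 to 234) passed limma's test at its brightest probe set, and 2 of the cholangiocyte markers were at an unadjusted p under 0.05. Over all probe sets of these lists, 1 of 9 cholangiocyte ones was higher and 1 of 13 lymphocyte ones lower. The shares over the whole array were 14.0% and 13.9%. The calls of Marco, Vsig4, Clec4g and Lrat were each lost on leaving out at least 1 liver, Marco and Clec4g with a limma adjusted p of up to 0.0991 and 0.101 (without FRG+NTBC replicate 1 and FRG-7dNTBC replicate 1). The part of these cell types in the clock differences was not tested. For the deleted genes no source used here says whether the probe set lies in the deleted part. Rag2 read 20.1 ± 3.21 and 20.1 ± 1.85 (SD, n = 3 each), Fah read 198 ± 16.5 and 95.5 ± 20.2, and Hpd, the target of NTBC, fell from 12081 ± 386 to 5766 ± 1431 (limma adjusted p = 0.00428).

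The genes with a pattern most like a member's were named by the smallest root mean square difference between their mean-centred log2 values over the 6 livers. Closest to Arntl were Tpp2 (0.061), a peptidase, Trmt11 (0.076), a tRNA methyltransferase subunit, and Ranbp1 (0.083), a nuclear transport factor. Closest to Nr1d1 were Coasy (0.059), the enzyme of coenzyme A synthesis, Ido2 (0.067), which breaks down tryptophan, and Gstz1 (0.074), which works just before Fah in tyrosine breakdown.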

How the data were processed

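Livers of 6 FRG mice, 3 with and 3 without NTBC, were hybridised to 1 array each. The deposited values are linear intensities that the authors computed by RMA (background correction, quantile normalization and median polish), with Transcriptome Analysis Console named in the processing notes. The table held 45037 probe sets, with intensities of 3.84 to 29532 and array medians of 33.1 to 36.5. Array number limits the precision. Groups came from the sample labels.

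Deposited intensities were log2 transformed and fitted with limma 3.58.1 in R 4.3.3 (lmFit, eBayes, no covariate), with Benjamini-Hochberg adjustment over all probe sets and a threshold of 0.05. The fit was tested on simulated data. The platform annotation gave 1 gene symbol to 34945 probe sets, several to 932 and none to 9160. Only those with 1 were used by name. Every member probe set is reported, and for other genes the brightest. Some genes of the clock and marker lists are not reported here, and list counts are over the genes measured. Members and lists were chosen with earlier results of these data known, so their counts and medians are descriptions. Named were all members, all ROR, D-box and E-box factors, up to 4 genes with the largest absolute log2 difference from each other clock list, Wee1 and Nampt, and the 3 genes nearest to Arntl and to Nr1d1. Cell markers and deleted genes were named beside them. Promoters came from RefSeq (GRCm38.p6). Alternatives were other scalings (75th percentile, quantile), a floor at the 25th percentile, dim or cross-hybridising probe sets left out, other moderation, array weights, a replicate block, the mean of all probe sets per gene, a 2-fold rule and leaving out each liver.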

Additional observations from a re-analysis of the deposited data

How the results depend on the processing

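Of 338 recomputed member values 312 kept their direction and side of the threshold, 13 lost the call, 5 gained it and 8 changed sign. The sign changes were in dim probe sets that never passed: Npas2 1421037_at at -0.11 (75th percentile), -0.04 (floor) and -0.04 to 0.07 on leaving out 1 liver, Clock 1439314_at at 0.07 (quantile), 0.01 (array weights) and -0.3 to 0.21 on leaving out 1 liver, and Per3 1421086_at at 0.01 (quantile). Arntl 1425099_a_at, Clock 1418659_at, Cry1 and the called Per2 and Per3 probe sets kept their calls under all 15 alternative fits. Without limma's moderation the lower member genes fell from 5 to 2, with Per1, Nr1d1 and Nr1d2 lost (limma adjusted p = 0.104, 0.0868 and 0.0935), and all probe sets to 3141 higher and 3336 lower (6284 and 6262 with it). Trend and robust moderation also lost Nr1d2 (0.0531). Leaving out 1 liver gave 2 to 6 lower member genes, 7 to 11 lower member probe sets, 4390 to 6815 higher and 3864 to 6400 lower probe sets overall. Scaling by the 75th percentile moved the median of all probe sets by -0.13 and gave 5366 higher and 9669 lower, with Per3 1460662_at then passing (-0.44, 0.049). Array weights let Arntl 1457740_at (-0.36, 0.0446) and Clock 1418660_at (-0.72, 0.0183) pass. With at least 2-fold, 3427 probe sets were higher and 2305 lower, and 2 member probe sets higher. The contrast of the arms, 1.97, was 2.08 after quantile normalization, 2.57 with dim probe sets left out (Npas2 then has none) and 1.0 with all probe sets averaged (2 member genes higher, 4 lower). Same-numbered livers did not deviate together (correlations 0.106, 0.0339 and -0.156), and with the replicate block 4 member genes were lower, Nr1d2 being lost (0.0539), and 3 higher. Causes were not tested. Dim readings, with no detection call used, limit Npas2, Bhlhe41 and the dim probe sets.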
